A study of Arabidopsis thaliana with 14 samples.

Results

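AT1G33790 and AT5G35940 are Arabidopsis thaliana genes of the jacalin lectin family, 2 of 13356 genes that have a probe set of their own in the annotation used. They were picked for values measured on these same arrays: AT1G33790 for its response to boron level and to the state of the boron channel gene NIP5;1, and AT5G35940 for its level in bor1 and bor2 mutants. Those contrasts are therefore given below as descriptions, without a test. Tests were kept for what did not enter the choice.

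Roots of 12-day-old Col-0 plants were profiled on 14 Affymetrix ATH1 arrays, a 1-colour oligonucleotide array, with 1 array for each of 7 genotypes at each of 2 boron levels. Plants had grown for 10 days on gellan gum medium with 100 µM boron and then spent 2 days at 0.3 µM (low) or 100 µM (sufficient) boric acid, so the sufficient arrays come from plants that never left that supply. The genotypes were wild-type, the nip5;1, bor1 and bor2 single mutants, and the double mutants of nip5;1 with bor1, with bor2 and with nip6;1. The 4 genotypes that carry nip5;1 are called channel mutants, the 3 others are called intact, and a double mutant is named by its second mutation. Each mutation is present in a few genotypes only and every genotype has 1 array per boron level, so a mutation and any other difference between those plant lines cannot be told apart. The labels report poor root and shoot growth of the channel mutants when boron is scarce, leaf expansion defects of bor1 and short roots of bor2.

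Boron holds together the pectin of plant cell walls by bridging pairs of rhamnogalacturonan II chains. NIP5;1 is the channel that brings boric acid into root cells, NIP6;1 is a related channel of the shoot, BOR1 is a borate exporter that loads boron into the xylem, and BOR2 is a borate exporter of root cells. Jacalin-related lectins are proteins that bind sugars such as mannose through a fold first described in jackfruit seeds. The family is large in Arabidopsis, and several members sit in roots together with PYK10, a beta-glucosidase stored in endoplasmic reticulum bodies (ER bodies), where some of them help to build the complex that forms when tissue is damaged. No particular function is assigned here to AT1G33790 or AT5G35940. They lie on chromosomes 1 and 5, and RefSeq lists 6 transcripts for AT1G33790 and 1 for AT5G35940, which a single probe set does not tell apart.

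Values are MAS5 signals on a linear scale that the authors had brought to a common mean, and differences are log2 values. The 2% trimmed mean was 500.04 on every array. Whole-root RNA cannot show whether a change comes from fewer cells of a type or from less RNA per cell. RNA integrity can be read from GAPDH control probes at the 3′ and 5′ ends of the transcript, whose 3′/5′ ratio averaged 1.68 ± 0.167 (SD, n = 7) at low and 1.44 ± 0.201 (n = 7) at sufficient boron. The bor2 array at low boron stood slightly apart, its median Spearman correlation to the remaining arrays being 0.976, where every other array had 0.982 to 0.987. It also had the highest signal of RCA, rubisco activase of green tissue, at 1242 against 297 to 785 on the other 13 arrays. Of 28 tissue marker entries only RCA and the root hair expansins EXPA7 and EXPA18 have a named probe set. EXPA7 ran from 862 to 1391 and EXPA18 from 923 to 1648, above the dim floor of 20 on all 14 arrays. The probe sets of the mutated transporter genes were not analysed here.

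AT1G33790 was low on every sufficient-boron array and high only where low boron met a nip5;1 mutation. At 100 µM boron its signal was 164 in wild type, 127 in bor1, 140 in bor2, 141 in nip5;1, 152 in the bor1 double mutant, 205 in the bor2 double mutant and 117 in the nip6;1 double mutant. The range of the intact genotypes lay inside that of the channel mutants at that level, with a mean of 143 ± 18.8 (SD, n = 3) in intact genotypes and 154 ± 37.0 (n = 4) in channel mutants. At 0.3 µM boron the signal was 172 in wild type, 286 in bor1 and 262 in bor2. In the channel mutants at 0.3 µM it was 894 in nip5;1, 814 in the bor1 double mutant, 650 in the bor2 double mutant and 874 in the nip6;1 double mutant. These 4 arrays lay above all others, and the lowest of them stood 2.28-fold over the highest of the other 10. Such a separation was present in 285 of 13648 tested probe sets (2.09%), and in 5 of them the gap was at least as wide as that of AT1G33790. The rule used this contrast, so nothing is read from that share.

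**Figure D1:**
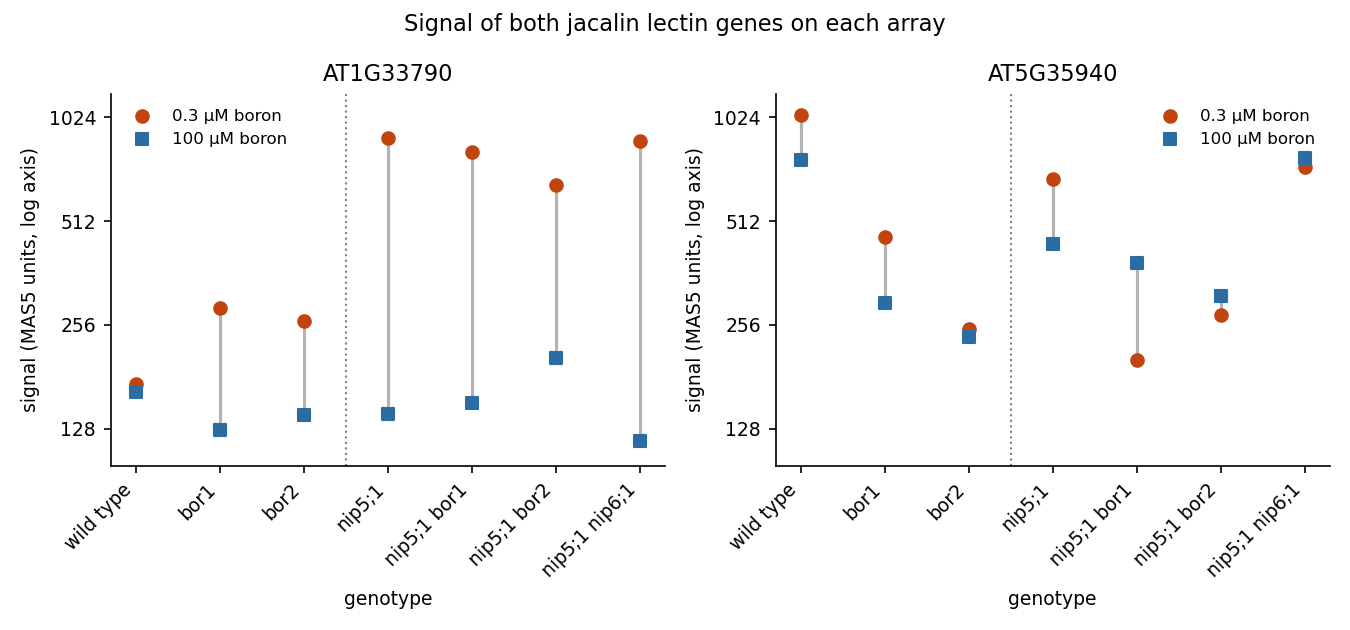
Signal of AT1G33790 (left) and AT5G35940 (right) on each of the 14 arrays, on a log axis in MAS5 units. Circles are 0.3 µM and squares 100 µM boron, a grey line joins the arrays of a genotype, and the dotted line parts the 3 intact genotypes from the 4 channel mutants. AT1G33790 reaches 650 to 894 only in channel mutants at 0.3 µM, while AT5G35940 stays between 202 and 461 in all bor1 and bor2 carriers.

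Genotype by genotype, the low-boron difference of AT1G33790 varied widely. The low to sufficient ratio was 1.05 in wild type, 2.25 in bor1 and 1.87 in bor2. It was 6.34 in nip5;1, 5.34 in the bor1 double mutant, 3.17 in the bor2 double mutant and 7.45 in the nip6;1 double mutant. Every channel mutant thus had a larger ratio than every intact genotype, and wild type had the smallest of all 7. On the log2 scale the mean difference was 2.41 ± 0.53 (SD, n = 4) in channel mutants and 0.72 ± 0.57 (n = 3) in intact genotypes. The smallest ratio among channel mutants, in the bor2 double mutant, came with the highest signal at sufficient boron and the lowest at low boron within that class.

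Among all tested probe sets AT1G33790 had the 16th highest low-boron difference in the channel mutants, the 19th highest average over the 7 genotypes (1.68 ± 1.04, SD) and the 9th highest excess of channel mutants over intact genotypes at low boron (1.78, SE 0.20). At sufficient boron the same class comparison gave 0.08 (SE 0.20), a rank of 3708. The rule used the boron and class contrasts, so nothing is read from these ranks. The median over all tested probe sets lay within 0.03 of 0 in these comparisons. Limma, which fits a linear model per probe set, called 5.17% of probe sets for boron in the channel mutants at adjusted p 0.05 and 3.77% for the average. The GAPDH ratio was 1.61 ± 0.160 (SD, n = 4) in channel mutants at low and 1.36 ± 0.152 (n = 4) at sufficient boron. With that ratio as a covariate the difference of AT1G33790 in channel mutants was 2.21 and in intact genotypes 0.56. Calls over all tested probe sets then went from 706 to 223 for boron in channel mutants and from 514 to 27 for the average.

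The bor1, bor2 and nip6;1 mutations had no part in choosing AT1G33790, and none of them passed the test. Limma estimates for bor1 and bor2 rest on 4 matched pairs each, which set a carrier against wild type or against nip5;1 at the same boron level and share those controls. Both arrays of a genotype count as independent in that fit, so its p-values do not measure the spread between carrier genotypes. The bor1 effect was 0.08 (SE 0.20, adjusted p = 0.999) and the bor2 effect 0.11 (SE 0.20, adjusted p = 0.906). The nip6;1 effect, which the same additive fit takes from the 1 genotype that carries it, was -0.09 (SE 0.25, adjusted p = 0.999), and that double mutant differed from nip5;1 by -0.03 at low and -0.27 at sufficient boron. In those comparisons limma called 0.0% of all probe sets for bor1, 0.00733% for bor2 and 0.0% for nip6;1, while 360, 1067 and 672 of 13648 had an unadjusted p under 0.05. The bor2 count was 1 of 13648 with all genotypes and 757 without the bor2 double mutant. That fit leaves the bor2 single mutant, whose array at low boron stood apart, as the only carrier. Without the bor2 single mutant the count was 1.

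Behind these small averages the single pairs of AT1G33790 went in both directions. In the bor1 pairs the carrier differed from wild type by 0.73 at low and -0.37 at sufficient boron, and the bor1 double mutant differed from nip5;1 by -0.14 at low and 0.11 at sufficient boron. The bor2 pairs gave 0.61 at low and -0.23 at sufficient boron against wild type, and -0.46 and 0.54 against nip5;1. At low boron both single mutants therefore had more signal than wild type, while both double mutants had less than nip5;1. That sign change was not tested.

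AT5G35940 had its lower signals in the genotypes that carry a borate exporter mutation, at both boron levels. In wild type its signal was 1042 at low and 769 at sufficient boron. In nip5;1 it was 678 at low and 438 at sufficient boron, and in the nip6;1 double mutant 735 and 780. In bor1 it was 461 at low and 295 at sufficient boron, and in bor2 248 and 235. In the bor1 double mutant it was 202 at low and 386 at sufficient boron, and in the bor2 double mutant 273 and 311. The 8 arrays of bor1 or bor2 carriers ran from 202 to 461 with a median of 284, and the 6 arrays without either mutation from 438 to 1042 with a median of 752. Only the bor1 array at low boron and the nip5;1 array at sufficient boron crossed.

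Ordered by the mean of their 2 arrays, the genotypes ran for AT5G35940 from wild type (905) through the nip6;1 double mutant (757), nip5;1 (558), bor1 (378), the bor1 double mutant (294) and the bor2 double mutant (292) to bor2 (242). The 2 arrays of a genotype overlapped in range with those of the next genotype in that order, except between the nip6;1 double mutant and nip5;1 and between the bor2 double mutant and bor2. Carriers of bor1 or bor2 filled the 4 lowest places. The order of AT1G33790 by the same mean was nip5;1 (518), the nip6;1 double mutant (496), the bor1 double mutant (483), the bor2 double mutant (428), bor1 (206), bor2 (201) and wild type (168), and there every neighbouring range overlapped because the boron levels differ so much.

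In matched pairs AT5G35940 was lower in the bor1 carrier in 4 of 4 and in the bor2 carrier in 4 of 4. In the bor1 pairs, the carrier was 2.26-fold lower than wild type at low boron and 2.60-fold lower at sufficient boron. Against nip5;1 the bor1 double mutant was 3.36-fold lower at low boron and 1.14-fold lower at sufficient boron. In the bor2 pairs the carrier was 4.19-fold lower than wild type at low boron and 3.27-fold lower at sufficient boron, and the double mutant 2.48-fold and 1.41-fold lower than nip5;1. The mean log2 difference was -1.12 ± 0.67 (SD, n = 4) for bor1 and -1.40 ± 0.68 (n = 4) for bor2. In a wild-type background the bor2 mean was -1.89 and in a nip5;1 background -0.90, against -1.28 and -0.97 for bor1.

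These differences ranked AT5G35940 at place 3 from the lowest of 13648 probe sets for bor1 and at place 2 for bor2. Of all tested probe sets 6.43% were lower in the carrier in all 4 bor1 pairs and 7.67% in all 4 bor2 pairs. The rule used both contrasts and nothing is read from these shares. Leaving out the bor2 genotype, whose array at low boron stood apart, the bor2 difference was -0.98. The root hair marker EXPA7 had a bor1 effect of -0.20 (SE 0.14) and a bor2 effect of -0.33 (SE 0.14), and EXPA18 had -0.10 (SE 0.14) and -0.19 (SE 0.14), none past the limma threshold. The part of root hair cells in the AT5G35940 values was not tested. The GAPDH ratio was 1.57 ± 0.228 (SD, n = 8) in carriers and 1.55 ± 0.217 (n = 6) in the other arrays.

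**Figure D2:**
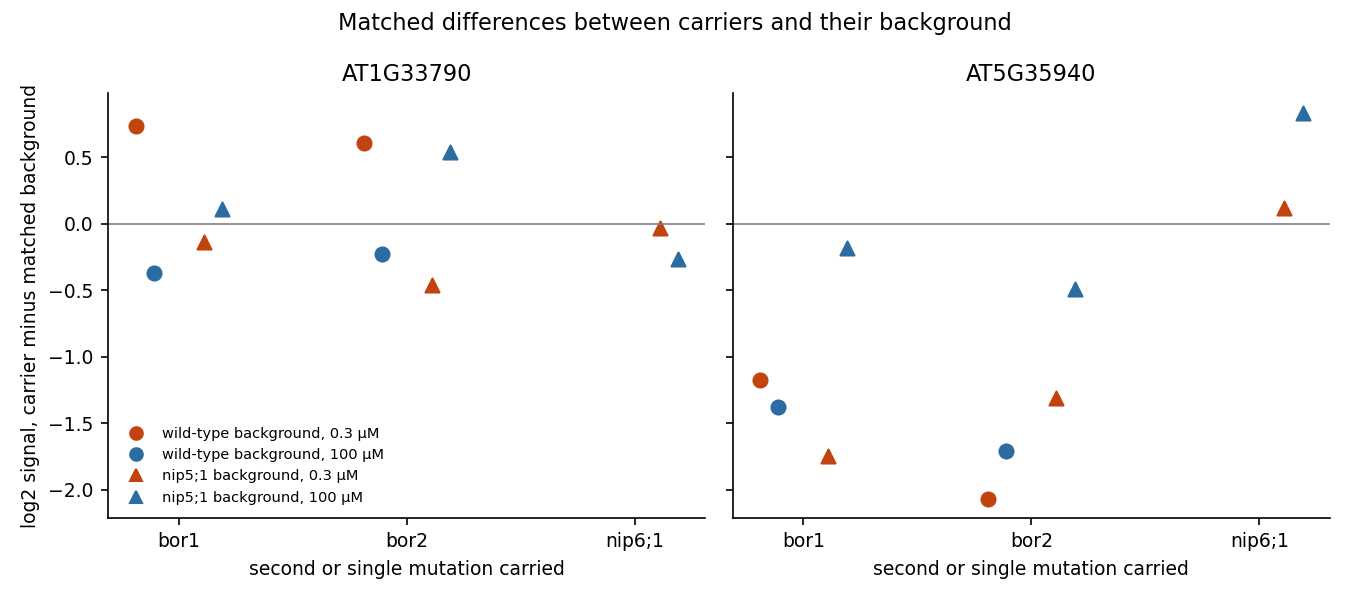
Log2 difference between each mutation carrier and its matched background for AT1G33790 (left) and AT5G35940 (right). Circles have a wild-type and triangles a nip5;1 background, red is 0.3 µM and blue 100 µM boron, and each point is 1 pair of arrays. AT5G35940 lies below 0 in all 4 pairs of bor1 (-0.18 to -1.75) and of bor2 (-0.49 to -2.07), while AT1G33790 falls on either side of 0.

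Boron supply itself had not been used to choose AT5G35940, and no boron comparison passed for it. Over the 7 genotypes the low-boron difference averaged 0.08 ± 0.56 (SD), with 4 genotypes higher and 3 lower at low boron (limma SE 0.16, adjusted p = 0.828, and exact two-sided sign-flip permutation p = 0.703, where 0.0156 is the smallest possible). All 3 intact genotypes were higher at low boron, by 0.44 in wild type, 0.64 in bor1 and 0.08 in bor2, a mean of 0.39 (SE 0.23, adjusted p = 0.694). Of the channel mutants nip5;1 was higher by 0.63, whereas the bor1, bor2 and nip6;1 double mutants had -0.93, -0.19 and -0.09, and the class mean was -0.14 (SE 0.20, adjusted p = 0.754). Between the classes the low-boron difference differed by -0.53 (SE 0.30, adjusted p = 0.763, and exact two-sided permutation p = 0.229 over the 35 splits of genotypes, where 0.0286 is the smallest possible). Limma called 0.132% of all probe sets for boron in the intact class and 0.11% for the class difference.

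No comparison of the NIP5;1 classes passed for AT5G35940 at either boron level. At low boron the signal was 584 ± 411 (SD, n = 3) in intact genotypes and 472 ± 273 (n = 4) in channel mutants, a log2 difference of -0.27 (SE 0.52, limma adjusted p = 0.872). At sufficient boron it was 433 ± 292 (n = 3) and 479 ± 208 (n = 4), a difference of 0.26 (SE 0.52, adjusted p = 1.00). Each class holds both bor carriers, at 202 to 461, and genotypes without a bor mutation, at 438 to 1042. The class comparison has no bor terms, so that spread is in its SE. In matched genotypes nip5;1 was below wild type at both levels, and the bor2 double mutant was above bor2 at both. The bor1 double mutant was below bor1 at low and above it at sufficient boron. These matched differences were not tested. The limma call rate was 0.989% at low and 0.0% at sufficient boron, where 384 of 13648 had an unadjusted p under 0.05. The nip6;1 effect in the additive limma fit was 0.26 (SE 0.30, adjusted p = 0.999), and directly against nip5;1 the double mutant differed by 0.12 at low and 0.83 at sufficient boron. With 1 carrier genotype, the spread between carriers is not in that p-value.

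No other tested jacalin family gene passed the threshold in any comparison. RefSeq names 16 further genes as jacalin-related lectins, myrosinase-binding or nitrile specifier proteins, of which JAL22, JAL23, JAL33 and JAL34 have a named probe set. A wider list of 26 loci, counted in the family from general knowledge and not named so in the annotation, adds 15 probe sets. Of these 19 genes 11 passed the filter on dim probe sets and 8 did not. Limma called 0 of the 11 in each of the 9 comparisons. At an unadjusted p under 0.05 there were 4 for the average boron difference, 4 in intact genotypes, 0 in channel mutants, 0 for the class difference, 1 between classes at low and 0 at sufficient boron, and 0 for bor1, 0 for bor2 and 5 for nip6;1. Over all tested probe sets the shares at that unadjusted level were 19.9% for the average, 8.43% in intact genotypes, 19.2% in channel mutants, 7.53% for the class difference, 11.7% between classes at low and 2.81% at sufficient boron. They were 2.64% for bor1, 7.82% for bor2 and 4.92% for nip6;1.

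Of the lectins known to accompany PYK10, only JAL22, JAL33 and JAL34 were tested, and none passed. PBP1, JAL31 and JR1 have no named probe set in the annotation used, so no value could be assigned to them. JAL34 ran from 12044 to 15411 over the 14 arrays, JAL33 from 7115 to 12668 and JAL22 from 3081 to 4591, while JAL23 was dim (14.2 to 29.7). In channel mutants the low-boron differences were 0.07 (SE 0.06) for JAL34, 0.16 (SE 0.11) for JAL33 and -0.13 (SE 0.10) for JAL22, against the 2.41 of AT1G33790. In intact genotypes they were 0.24 (SE 0.07, limma adjusted p = 0.363) for JAL34, 0.32 (SE 0.13, adjusted p = 0.556) for JAL33 and -0.09 (SE 0.11, adjusted p = 0.885) for JAL22, against the 0.72 of AT1G33790. The bor2 effects were 0.01 (SE 0.07), -0.09 (SE 0.14) and -0.09 (SE 0.10), against the -1.40 of AT5G35940. AT1G33790 and AT5G35940 were chosen by these contrasts, so nothing is read from the gaps. AT2G25980, with 2330 to 3638, had 0.06 (SE 0.14) for boron in channel mutants, -0.05 (SE 0.14) for bor1 and 0.09 (SE 0.14) for bor2. Over all 11 genes the median difference was 0.07 for boron in channel mutants, with a range from -0.13 to 0.35, and the median over all probe sets was 0.00. For bor1 the 11 ran from -0.11 to 0.25 and for bor2 from -0.19 to 0.16.

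**Figure D3:**
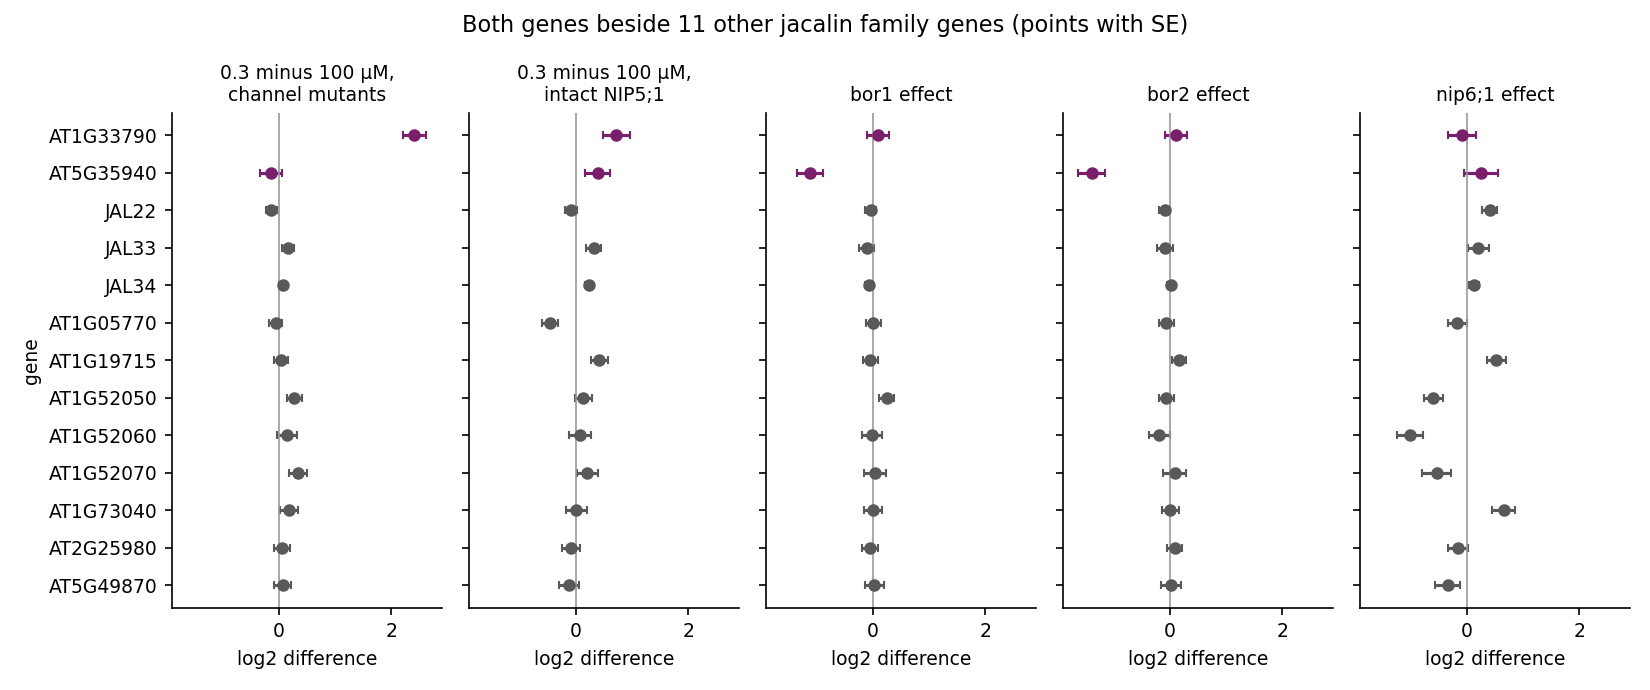
Log2 differences with SE (limma) of AT1G33790 and AT5G35940 (purple) and 11 other tested jacalin family genes (grey) in 5 comparisons. AT1G33790 stands at 2.41 for boron in channel mutants and AT5G35940 at -1.12 for bor1 and -1.40 for bor2, with the 11 others between -0.19 and 0.35 in those panels. The first 2 genes were chosen by these values.

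The widest range of the 11 genes, from -1.01 to 0.65, was that of the nip6;1 effects. AT1G52060 had 4769 in nip5;1 and 1669 in the nip6;1 double mutant at low boron, and 3558 and 2081 at sufficient boron. The nip6;1 effects were -1.01 (SE 0.23) for AT1G52060, -0.60 (SE 0.17) for AT1G52050 and -0.54 (SE 0.26) for AT1G52070, with limma adjusted p of 0.485, 0.747 and 0.997. AT1G73040 (0.65, SE 0.20), AT1G19715 (0.52, SE 0.17) and JAL22 (0.40, SE 0.13) had effects of the opposite sign, with adjusted p of 0.796, 0.82 and 0.82. An unadjusted p under 0.05 was reached by 5 of the 11 genes (AT1G52050, AT1G52060, AT1G73040, AT1G19715 and JAL22) and by 4.92% of all probe sets. The double mutant is the only carrier, so these 5 genes share the same carrier arrays and are not separate observations. EXPA7 (-0.42, SE 0.17) and EXPA18 (-0.47, SE 0.18) had negative effects in that double mutant too, while RCA had 0.87 (SE 0.35), none of them past the threshold. Their part in the lectin values was not tested.

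Of the ER body list 7 of 18 entries have a named probe set and 6 were tested, including the 3 lectins above. Limma called 0 of 6 in each comparison, and at an unadjusted p under 0.05 there were 2 for the average, 2 in intact genotypes, 1 for bor1, 1 for bor2, 1 for nip6;1 and 0 in the other 4. The shares over all probe sets in those 5 comparisons were 19.9%, 8.43%, 2.64%, 7.82% and 4.92%. PYK10 ran from 16687 to 19899 and NAI2, a structural protein of ER bodies, from 5243 to 6976. Their average boron differences were -0.01 (SE 0.05) and 0.09 (SE 0.06). The unadjusted calls for bor1 and bor2 were NAI1, the transcription factor that drives ER body genes. NAI1 had 970 in wild type, 588 in bor1 and 559 in bor2 at low boron, and 845, 612 and 415 at sufficient boron. Against nip5;1 (664 at low, 769 at sufficient boron) it had 372 and 834 in the bor1 double mutant and 606 and 449 in the bor2 double mutant. It was thus lower in 3 of 4 bor1 pairs and in 4 of 4 bor2 pairs, with effects of -0.48 (SE 0.21, limma adjusted p = 0.999) and -0.68 (SE 0.21, adjusted p = 0.573). AT5G35940 had its lowest signal, and NAI1 too, on the array of the bor1 double mutant at low boron.

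The nearest genes with a named probe set had small differences in the comparisons of their member. Beside AT1G33790, AT1G33780 had a low-boron difference of 0.06 (SE 0.10) in channel mutants and AT1G33810 of -0.11 (SE 0.12), with limma adjusted p of 0.825 and 0.701. Beside AT5G35940, AT5G35930 had a bor1 effect of 0.09 (SE 0.14, adjusted p = 0.999) and a bor2 effect of -0.15 (SE 0.14, adjusted p = 0.825). AT5G35960 on the other side was too dim to test (25.8 to 78.7). AT5G35950, a gene of the wider jacalin list, has no named probe set, so no value could be assigned to it.

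Among 7389 other tested probe sets that name 1 gene, those most like AT1G33790 over the 14 arrays were EXPA20, a wall-loosening expansin (Pearson r = 0.973), AT5G22580 (0.960), AT4G31000 (0.959), AT4G19980 (0.959) and AT2G41890 (0.952). All 14 points come from the same arrays, and r mainly reflects the 4 channel mutants at low boron. EXPA20 had 674, 924, 748 and 870 in nip5;1 and its bor1, bor2 and nip6;1 double mutants at low boron, and 217 to 334 on the other arrays. In AT5G22580 the same 4 arrays had 1918, 2322, 1461 and 1810 against at most 487 elsewhere. At low boron bor1 and bor2 lay above wild type in each of these most alike genes, as for AT1G33790. In AT5G22580 they had 382 and 487 over 190, and in EXPA20 334 and 299 over 229. The genes were picked by r over these same arrays, so nothing is read from that shared order. The most opposite were AT2G40480 (r = -0.933), AT3G22540 (-0.930) and the pectin methylesterase gene ATPMEPCRD (-0.925).

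The genes most like AT5G35940 were AT5G22730 (r = 0.904), AT3G13510 (0.838), CP5 (0.834), AtSec20, named for a vesicle-fusion protein (0.818), and AT1G80630 (0.806). Their bor1 and bor2 differences were smaller than those of AT5G35940. AT5G35940 was chosen by these differences and the other genes by r over the same arrays, so nothing is read from that contrast. AT5G22730 ran from 165 to 241 over all arrays with a bor1 effect of -0.23 and a bor2 effect of -0.24, and CP5 from 1768 to 2838 with -0.24 and -0.37. The lowest r values belonged to AT4G32470 (-0.817), MAB1 (-0.784) and KIWI (-0.763).

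**Figure D4:**
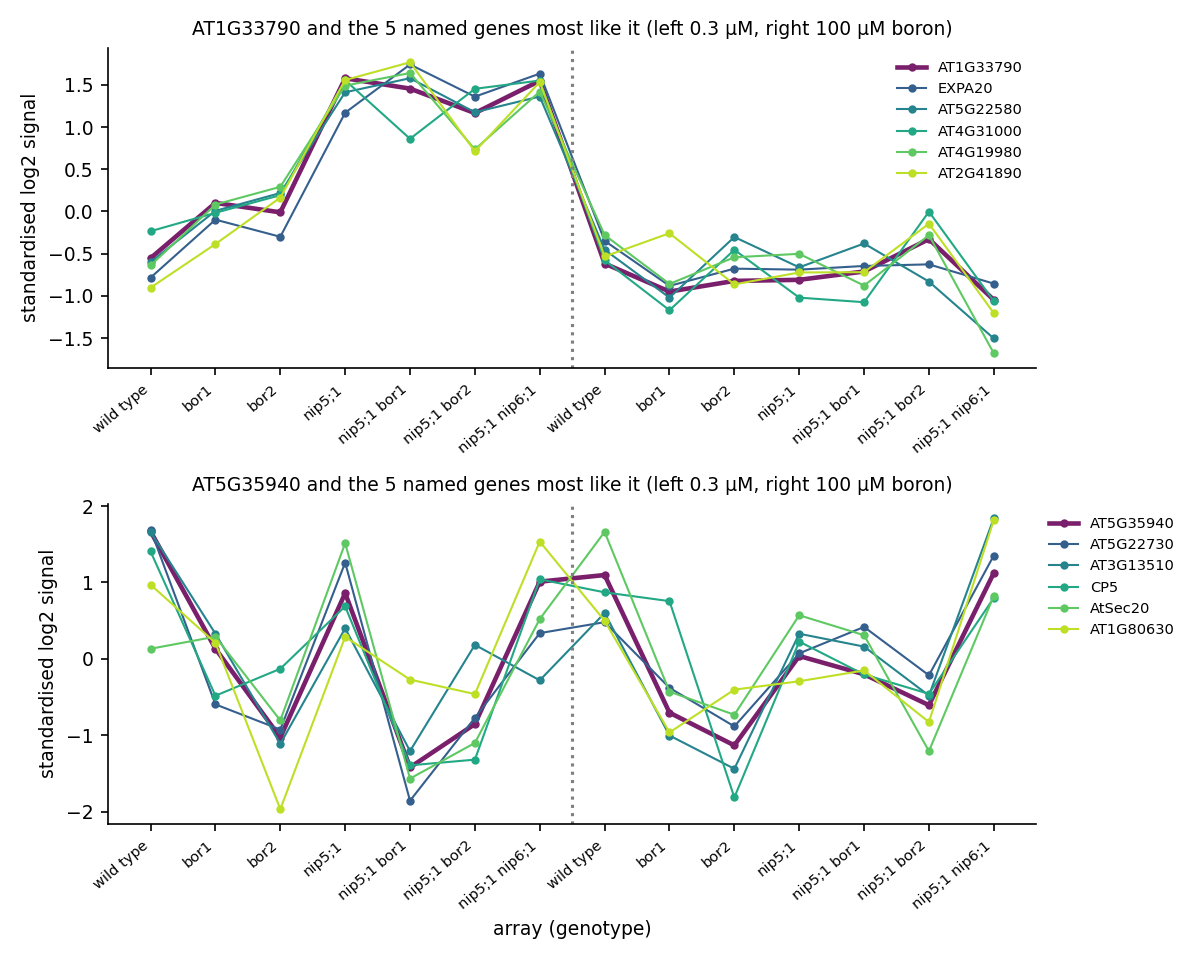
Log2 signal of AT1G33790 (top) and AT5G35940 (bottom) with the 5 named genes of highest Pearson r, each scaled to mean 0 and SD 1 over the 14 arrays, with 0.3 µM arrays on the left and 100 µM arrays on the right of the dotted line. Lines only join the points of a gene. The top profiles share a block of high values in the 4 channel mutants at 0.3 µM, and in the bottom panel all 6 genes lie below 0 in bor2 at both levels and in the bor1 double mutant at 0.3 µM, while single genes cross between carriers and the rest elsewhere (CP5 is at 0.76 in bor1 at 100 µM).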

How the data were processed

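Per the submitters' processing notes, the authors made the deposited intensity values with MAS5 (its version is not given in the sources used). The table has 1 column per array, no detection calls and 22810 probe sets, of which 64 array controls were left out. Precision is limited by the number of arrays.

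Arrays were brought to 1 common 2% trimmed mean, and values below a floor of 20 signal units (the 20th percentile) were raised to it before taking log2. Probe sets in the brightest 60% (13648, by mean signal) were tested with limma 3.58.1 in R 4.3.3 (eBayes with an intensity trend), in two-sided tests called at a Benjamini-Hochberg adjusted p of 0.05 across all probe sets tested. Boron differences used genotype as a block, class comparisons at each level genotype as a random block (consensus correlation 0.105), and bor1, bor2 and nip6;1 an additive fit. With 1 array per group, p-values measure the spread between genotypes, and labels do not say which samples are separate cultures. Python 3.11.15 (numpy 2.4.6, pandas 2.3.3, scipy 1.17.1, matplotlib 3.10.9) did the rest. The fits were also run on simulated data drawn independently for each array, which cannot show the effect of correlated arrays within a genotype.

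Members, lists and tests were chosen with earlier results of these data known. The family was to be found by protein similarity, but no protein table was used here, so names in the RefSeq table (TAIR10.1) replaced it, and the wider list was added after the annotation was seen. The rule for named genes took both members, family members past the threshold and the 6 brightest, up to 4 ER body genes with the largest average boron difference, the nearest neighbours, and the 5 most alike and 3 most opposite genes per member. Other genes, including PYK10, NAI1, AT1G73040, AT1G19715 and the markers, were named after their values were seen. Alternatives were other floors, filters, fits, a GAPDH covariate and leaving out each genotype.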

Additional observations from a re-analysis of the deposited data

Results flagged for a closer look

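A single array, or the low-boron difference of a single genotype, stood apart in 4 of 48 groups examined over 16 genes. The measure was the gap to the nearest neighbour relative to the group's range, for which chance gives about 1 in 20. None of the 4 concerned AT1G33790 or AT5G35940. The nip6;1 double mutant was the genotype in 3 of them. AT1G19715 at sufficient boron had a log2 signal of 7.39 there against 6.98 to 7.05 in the other channel mutants. JAL22 at low boron had 12.16 against 11.62 to 11.65. The low-boron difference of NAI2 was 0.41 in that double mutant against -0.01 to 0.09 in the other genotypes. The low-boron difference of NAI1 in the bor1 double mutant was -1.17, against -0.21 to 0.43 in the others.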

How the results depend on the processing

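No tested comparison of either gene passed under any alternative run (lowest limma adjusted p 0.293), and no listed family or ER body gene was called. The descriptive differences kept their sign, except AT1G33790 between classes at sufficient boron. With a genotype left out, its boron difference ran from 2.25 to 2.66 in channel mutants and from 0.49 (without bor1) to 1.04 (without wild type) in intact genotypes, and the AT5G35940 differences from -0.80 to -1.45 for bor1 and from -0.98 to -1.81 for bor2.

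Small differences changed sign with a genotype left out, and the cause was not tested. For AT1G33790 these were the class comparison at sufficient boron (-0.067 to 0.20), bor1 (-0.0021 to 0.17) and nip6;1 (-0.15 to 0.022, and 0.013 with the GAPDH covariate). For AT5G35940 they were average boron (-0.011 to 0.25), boron in channel mutants (-0.40 to 0.12), the class comparisons at low (-0.77 to 0.27) and sufficient boron (-0.083 to 0.77), and nip6;1 (-0.17 to 0.47). The nip6;1 effect could not be fitted without its only carrier. Signal over background limits dim genes: 8 of the 19 family probe sets were too dim to test.

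Counts of calls over all probe sets moved more. Over all alternatives they ran from 13 to 601 for average boron (514 in the report), 183 to 946 for channel mutants (706), 5 to 23 for intact genotypes (18), 0 to 46 for the class difference (15), 26 to 246 between classes at low boron (135), 0 to 2 at sufficient boron (0), 0 to 1 for bor1 (0), 1 to 757 for bor2 (1) and 0 to 6 for nip6;1 (0). The lowest counts for the 4 boron differences came when dim probe sets were kept. The bor2 count of 757 came without the bor2 double mutant, where the bor2 single mutant was the only carrier.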
